A study of Mus musculus with 71 samples.

Results

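Broad RING1B domains were the 724 of 6326 RING1B intervals of mouse embryonic stem cells (ESC) that spanned at least 4000 bases from start to end. Width alone chose them, in the authors' own peak table on the mm10 build, so no value of RING1B or CBX7 signal entered the choice directly. The other 5602 intervals were narrower. Of these, 1911 overlapped an H3K27me3 ChIP peak of ESC and 3691 did not. Intervals just outside the limit lay at Cdh23 (3990 bases) and Foxi3 (3995), with mean WT RING1B signals of 517 and 385 tags per 10 M. Those just inside lay at Lingo2 (4005 bases), Gm13889 (4020) and Ovol1 (4023), with 347, 512 and 312.

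The cells were J1 ESC, a mouse line grown on feeder fibroblasts in serum with LIF. They carried unaltered CBX7 (WT), a form named CBX7-CaPS or a form named CBX7-mCaPS. The series title says that the introduced domain comes from the Polycomb machinery of committed cells. The labels do not explain the name mCaPS. ESC were compared with neural progenitor cells (NPC) at days 6 and 8, made by growing ESC as aggregates without LIF and then adding retinoic acid, and with embryoid bodies (EB) at day 10. ChIP was done on 3 WT and 3 CaPS ESC libraries for each of RING1B and CBX7 (experiments 1, 2 and 3), on 2 and 2 for H3K27me3 in ESC (experiments 1 and 5) and on 2 and 2 for RING1B at day 8 (experiments 4 and 3). A RING1B time course covered ESC, day 6 and day 8 with 2 series per genotype (experiments 3 and 5). By their labels, its ESC and day-8 libraries of experiment 3 are shared with the other RING1B tables, although the totals given there differ (18.60 and 19.18 M tags for WT ESC). CUT&RUN, which cuts out bound chromatin without sonication, had 1 library per genotype for each target. The sources do not say whether the libraries within a group were grown separately or from how many clones. The p-values therefore measure only spread between these libraries, which may be technical. The main limma fits take that spread from peaks of like signal, not from the libraries of a single peak. A signal here is the number of tags in an interval scaled to a total of 10000000 (10 M) tags per library. ChIP pools many cells, so a lower signal per cell and a smaller share of bound cells cannot be told apart.

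RING1B is the ubiquitin ligase subunit of Polycomb repressive complex 1 (PRC1), which marks histone H2A and compacts chromatin. CBX7 is a PRC1 subunit whose chromodomain binds H3K27me3, the histone mark laid down by PRC2. In ESC both complexes sit on CpG-rich starts of developmental regulators that are silent but can be switched on later, and the Hox clusters are the best-known broad Polycomb domains.

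Depth and enrichment differed between experiments. Library totals in ESC ran from 2.23 to 27.09 M tags for RING1B and from 2.63 to 49.13 M for CBX7, and the CaPS libraries of experiment 2 were the shallowest for both. The 6326 intervals held 3.47% to 19.3% of the RING1B tags and 2.63% to 17% of the CBX7 tags, highest in WT of experiment 2 for both proteins. The experiment was a block in every main fit, because the design text says that comparisons were made within experiments. Expression was not measured, so the labelled cell types can be set only beside binding at marker genes. Of 10 pluripotency markers none started in a domain and 2 (Esrrb and Utf1) started in a narrower interval. A domain of 4932 bases was assigned to Sox2, which is among these markers, but it did not hold the Sox2 start. Of 6 neural progenitor markers 5 (Sox1, Pax6, Nes, Olig2 and Neurog2) started in a domain. Of 8 fibroblast markers, which bear on the feeder cells, 2 (Pdgfra and Prrx1) did.

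Promoter sequences show the CpG content of the domains. Shown are the 250 bases upstream of RefSeq starts (GRCm38.p6, the same build as mm10), 5' to 3' on the strand of the gene, with every CG in capitals. Hoxa6 names the second widest domain and lies at chr6:52208673-52208922 on the minus strand. Bcorl1 (chrX:48341108-48341357, plus) and Zfhx3 (chr8:108714394-108714643, plus) start in 2 of the widest domains that had no RING1B peak at day 8. Nab2 (chr10:127666704-127666953, minus), Zdbf2 (chr1:63273019-63273268, plus) and BB283400 (chr6:30176373-30176622, plus) start in the widest domains that had no H3K27me3 ChIP peak in ESC.
Hoxa6: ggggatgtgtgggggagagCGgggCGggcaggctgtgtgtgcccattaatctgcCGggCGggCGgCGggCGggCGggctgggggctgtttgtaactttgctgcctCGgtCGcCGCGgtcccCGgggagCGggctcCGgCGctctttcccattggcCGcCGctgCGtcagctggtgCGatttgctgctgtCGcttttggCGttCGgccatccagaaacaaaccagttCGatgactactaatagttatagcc
Bcorl1: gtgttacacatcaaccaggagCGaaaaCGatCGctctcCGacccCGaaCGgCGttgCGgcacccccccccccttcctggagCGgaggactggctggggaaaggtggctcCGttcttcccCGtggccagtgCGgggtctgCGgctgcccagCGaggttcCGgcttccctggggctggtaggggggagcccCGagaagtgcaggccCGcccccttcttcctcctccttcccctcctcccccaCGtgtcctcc
Zfhx3: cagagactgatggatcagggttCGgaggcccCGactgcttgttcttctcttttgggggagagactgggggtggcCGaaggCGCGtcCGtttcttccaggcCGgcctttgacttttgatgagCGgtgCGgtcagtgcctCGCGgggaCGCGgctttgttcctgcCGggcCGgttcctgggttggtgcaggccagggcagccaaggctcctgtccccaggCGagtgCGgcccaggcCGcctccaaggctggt
Nab2: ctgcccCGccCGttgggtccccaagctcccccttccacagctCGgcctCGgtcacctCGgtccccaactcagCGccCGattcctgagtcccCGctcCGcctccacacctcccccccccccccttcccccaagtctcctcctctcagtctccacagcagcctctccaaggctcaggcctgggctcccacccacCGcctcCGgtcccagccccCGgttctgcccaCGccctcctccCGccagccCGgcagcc
Zdbf2: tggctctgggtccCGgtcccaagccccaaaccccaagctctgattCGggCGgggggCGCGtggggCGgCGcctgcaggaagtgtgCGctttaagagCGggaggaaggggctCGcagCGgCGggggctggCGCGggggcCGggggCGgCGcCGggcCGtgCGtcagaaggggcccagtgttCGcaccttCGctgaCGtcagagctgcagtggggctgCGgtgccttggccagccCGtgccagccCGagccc
BB283400: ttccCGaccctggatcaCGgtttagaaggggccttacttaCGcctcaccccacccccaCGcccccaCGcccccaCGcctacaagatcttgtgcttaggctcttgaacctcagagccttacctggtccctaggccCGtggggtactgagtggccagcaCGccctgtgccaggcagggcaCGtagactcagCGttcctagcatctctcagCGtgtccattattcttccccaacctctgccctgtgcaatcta
These windows held 24 CG in Hoxa6, 18 in both Bcorl1 and Zfhx3, 15 in Nab2, 26 in Zdbf2 and 11 in BB283400. Hoxa6, with the mark over 95% of its domain, thus lay inside the range of CG counts of the 3 without an H3K27me3 ChIP peak. Across all 898 RefSeq starts that fell in domains, of 730 genes, the median was 15 CG (quartiles 10 and 23) and the median GC content 62.4%. The 2637 starts in intervals under 4 kb had a median of 16 CG (quartiles 10 and 23) and the same GC content. The 29316 starts in no interval had a median of 5 CG, and all 32851 starts together 6. A CG of any number stood in 99.8% of the windows in domains and in 92.1% of all windows. At least 10 CG stood in 75.4% of the windows in domains, in 77.3% of those in narrower intervals and in 37.8% of all. The domains thus shared CpG-rich starts with the narrower intervals and were no richer in CG per window.

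The domains fell into 330 of 4 to 6 kb, 172 of 6 to 10 kb, 161 of 10 to 20 kb and 61 of at least 20 kb, with a median of 6445 bases. They made up 11.4% of the intervals and 49.5% of their length (7046 of 14238 kb). Within the tags that fell in intervals, the domains held 71.6% to 77.9% in the 6 RING1B libraries and 76.2% to 80.0% in the 6 CBX7 libraries. The density of tags rose with width in each of the 12 libraries. In WT of experiment 1, RING1B went from 11.4 tags per 10 M and kb in intervals under 1 kb to 48.8 at 4 to 6 kb and 86 at 20 kb and over. In WT of experiment 2 the same classes held 55.3, 128 and 249, and in experiment 3 they held 16.7, 59.8 and 140.0. CBX7 density in WT rose from 7.99 to 48.8 and 86.1 in experiment 1, from 18.2 to 121 and 245 in experiment 2 and from 8.48 to 39.3 and 77.5 in experiment 3. Broad domains were thus both longer and denser than the narrower intervals. A stronger signal can also make a called interval longer, so width and density are not independent measures.

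**Figure D1:**
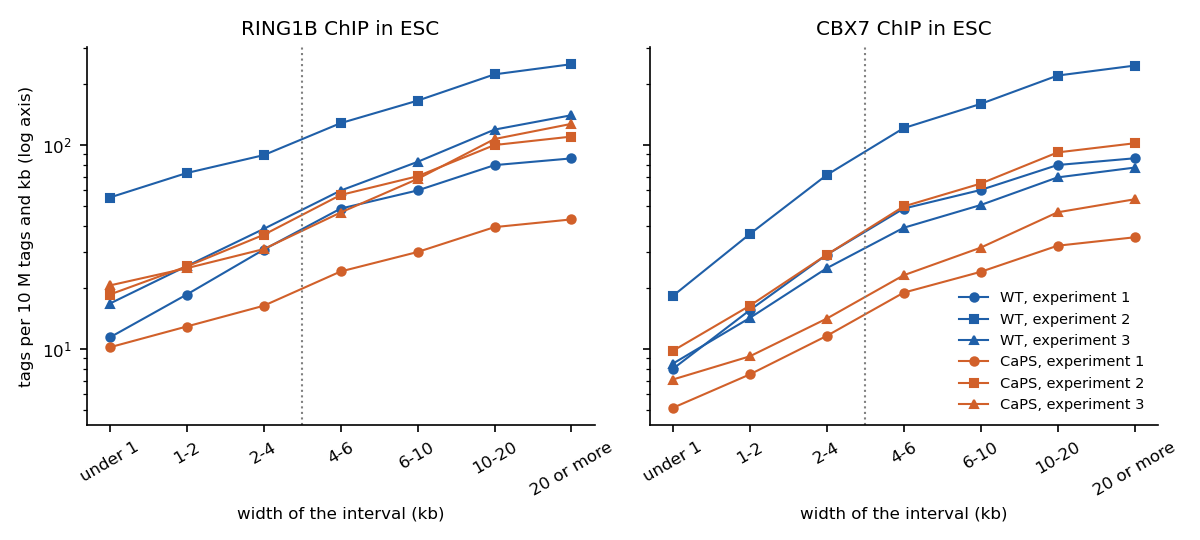
Tags per 10 M tags and kb (log axis) in each class of interval width (kb), for RING1B (left) and CBX7 (right) in ESC. Each line is 1 library, WT in blue and CaPS in orange, and the dotted line marks the 4 kb limit. Every line rises to the right, and in each experiment the CaPS line lies below the WT line across the domain classes.

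In the authors' annotation 658 domains were assigned to protein-coding genes, 65 to non-coding RNA genes and 1 to a pseudogene. The centre of the domain lay in a promoter in 161 cases (22.2%, against 32.8% of narrower intervals), in an intron in 290 (40.1%), in an exon in 93, between genes in 84 and in a 5' UTR in 41. Fewer centres lay within 1 kb of the start of the assigned gene (366, or 50.6%) than among narrower intervals (72.2%). A RefSeq start lay inside 532 domains, 157 domains held at least 2, and the domain over the HOXA cluster held 16. The 724 domains were assigned to 706 genes. For 18 genes, among them Otx2, Eomes, Lhx6, Gbx2, Wnt10a and Zdbf2, there were 2 domains each. The median gap to the nearest domain was 657 kb, and 104 domains (14.4%) had another within 50 kb.

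Many of the genes that started in domains regulate development. Of 17492 protein-coding genes with a start in the sequence table, 514 (2.94%) started in a domain. For homeobox and Pax families the counts were 21 of 22 Hox and 7 of 7 Pax genes, the latter patterning the neural tube and sense organs. The count was 11 of 11 for LIM homeobox genes, which specify neurons and limb, and 37 of 41 for NK and related homeobox genes. It was 14 of 19 for paired-type and other brain homeobox genes, 4 of 5 for POU class 3 and 4 and 9 of 15 for the list of Irx, Eya, Meis and sine oculis (Six2, Six3, Six6) homeobox and cofactor genes. Other regulator families were split between domains, narrower intervals and no interval. Domains held 7 of 13 T-box starts, 6 of 13 Sox, 12 of 28 forkhead, 19 of 40 bHLH, 18 of 48 zinc finger and 11 of 42 Tfap2 and nuclear receptor starts. Of signalling genes, 11 of 37 Wnt pathway starts and 11 of 46 starts of BMP, TGF-beta, FGF and Hedgehog ligands and antagonists lay in domains. For 13 genes of each of these 2 lists the start lay in a narrower interval instead, Dkk1 and Fgf10 among them. Of the Polycomb genes themselves, 2 of 28 started in a domain, Bmi1 and Cbx8. Of 8 genes in the list of cyclin-dependent kinase inhibitors, Cdkn2a and Cdkn2c did. Of 15 pluripotency regulators, Fgf5 and Otx2 did, both genes that rise when ESC leave the naive state. In all, 256 domains (35.4%) were assigned to a gene of one of these lists. This count uses the assigned gene only, so a domain assigned to another gene can still hold a listed start. The HOXC domain, assigned to Mir196a-2, and the domain with the Hand2 start, assigned to 5033428I22Rik, are examples.

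The widest domains lay at the Hox clusters. The widest spanned 129579 bases over the HOXC cluster (chr15:102908418-103037996) and was assigned to the microRNA gene Mir196a-2. The next lay at HOXA (assigned to Hoxa6, chr6:52150360-52268794, 118435 bases), HOXB (Hoxb5os, chr11:96265598-96357819, 92222 bases) and HOXD (Hoxd11, chr2:74648095-74716325, 68231 bases). The domains called HOXB and HOXD here hold only part of their cluster. Separate domains were assigned to Hoxb13 and Hoxb1, and the Hoxd4 start lay in no interval. The fifth (5033428I22Rik, chr8:57308783-57354679, 45897 bases) held the start of Hand2, a bHLH regulator of heart and limb. Then came Zic4 (41800 bases), which also held the start of Zic1, both zinc finger regulators of the cerebellum, Skida1 (40140 bases), Dlx6os2 at the Dlx5 and Dlx6 locus (36775 bases), and the neural crest regulator Pax3 (34391 bases).

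At the HOXA domain the RING1B signal was 12697, 39103 and 22330 tags per 10 M in WT of experiments 1, 2 and 3, against 5412, 12719 and 15722 in CaPS. The CBX7 signal was 12943, 39781 and 12259 in WT, against 4444, 12535 and 6830 in CaPS. In each experiment the CaPS library was below the WT library, but the groups overlapped because experiments differed in scale: CBX7 in CaPS of experiment 2 exceeded WT of experiment 3. At the HOXC domain CBX7 was 10527, 29648 and 9345 in WT, against 4666, 12523 and 6697 in CaPS, again lower in each experiment and again overlapping. The HOXD domain had 6871, 20110 and 5637 in WT and 2847, 7595 and 4232 in CaPS, and the Zic4 domain 3101, 9447 and 3048 against 1172, 3485 and 1888. Skida1 went its own way in experiment 3, with CBX7 at 2539, 6269 and 2093 in WT and 1187, 3683 and 2341 in CaPS.

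**Figure D2:**
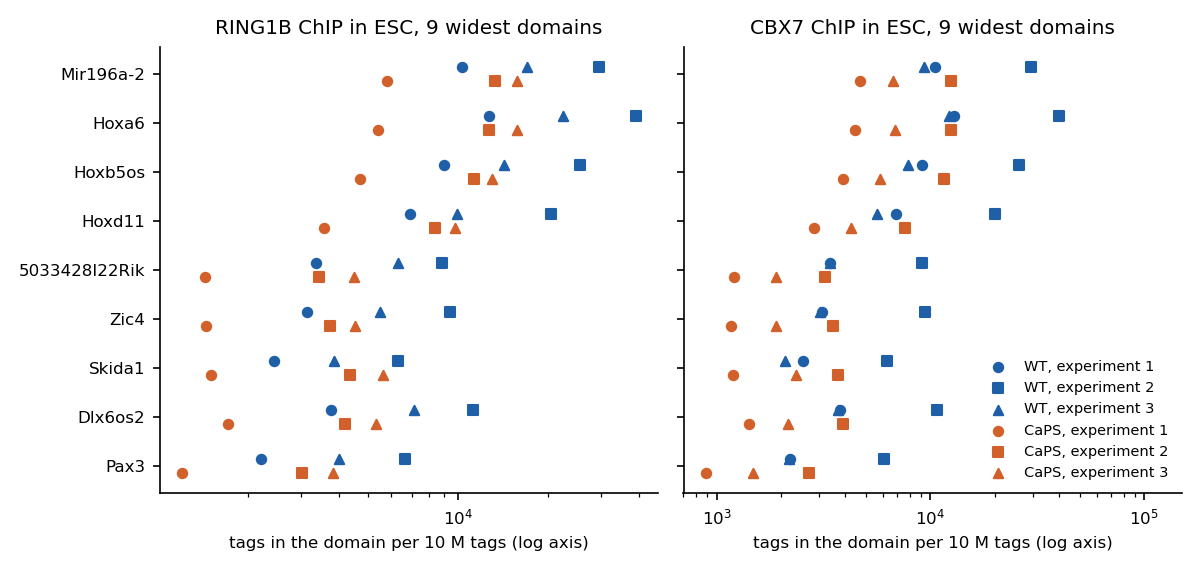
RING1B (left) and CBX7 (right) tags in the 9 widest domains per 10 M tags, on a log axis. Each point is 1 library, WT in blue and CaPS in orange, with the symbol giving the experiment. Within an experiment the CaPS point lies left of the WT point in every domain shown except Skida1 in experiment 3.

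Most domains carried less CBX7 signal in CaPS ESC. With limma on log2(value + 1), the experiment as a block and Benjamini-Hochberg adjustment over all 6326 intervals, CBX7 fell at 676 of 724 domains (93.4%) and rose at 0, where 0 also had an unadjusted p under 0.05 for a rise and edgeR and DESeq2 each called 0 rises. Over the whole table the share that fell was 44.3%, and 0.0632% rose. The median difference at domains was -1.07 on the log2 scale, against -0.78 in narrower intervals and -0.85 over all. Among intervals under 4 kb 2125 of 5602 fell (37.9%). The share depended on strength as well as width: of narrower intervals with a mean CBX7 signal of at least 10, 1900 of 2754 fell (69%), and of those with less, 225 of 2848 fell (7.9%). Of those that carried an H3K27me3 ChIP peak, 1344 of 1911 fell (70.3%). Within the domains the share was 95.2% at 4 to 6 kb, 93.6% at 6 to 10 kb, 91.9% at 10 to 20 kb and 86.9% at 20 kb and over.

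The fall in CBX7 was seen in each experiment but was smaller in the third. The median log2 ratio of CaPS to WT over the domains was -1.31 in experiment 1, -1.26 in experiment 2 and -0.67 in experiment 3. The ratio was below 0 in all 3 experiments at 695 domains (96%, against 60.9% of all intervals). Every CaPS library lay below every WT library at 120 domains (16.6%, against 20.8% of all), so on this measure the domains did not stand above the table. Without the block limma called 0 of the domains. It also called 0 when the variance of each interval was moderated towards a common value in place of the trend. On the same libraries edgeR called 92.8% and DESeq2 95.6%. The scaling mattered too. When libraries were scaled to the same sum over the intervals, the median of the whole table moved by 0.96, the median of the domains became -0.02, and 61 domains fell and 39 rose (103 and 81 of all 6326 intervals). Leaving out experiment 1 or 2 left 206 or 176 domains called, and leaving out experiment 3 left 720.

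The 5 largest falls that held in every experiment were at Esrp1, an epithelial splicing regulator, Duoxa2, a maturation factor of dual oxidase, Comp, a cartilage matrix protein, Cbln1, a secreted organiser of synapses, and Podxl, a surface sialomucin. At Esrp1 CBX7 was 131, 579 and 240.0 in WT, against 59.7, 64.6 and 66.2 in CaPS, with no overlap, and a log2 difference of -2.03 (SE 0.27, adjusted p 2.63e-10, limma). At Comp it was 325, 1111 and 328 against 67.7, 278 and 103, also with no overlap, and a difference of -1.97 (SE 0.27, adjusted p 6.52e-10, limma). Cbln1 had 917, 2826 and 844 against 220.0, 586 and 307, a difference of -1.93 (SE 0.29). The 5 domains were 5010 to 7024 bases wide, near the median width. With the same sum over the intervals all 5 stayed below 0. The SEs come from the trend over all intervals, so they do not measure how the libraries of a single domain disagree. Without the trend the limma adjusted p was 0.0689 at all 5, and without the block it was 0.36.

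Comp and Cbln1 lie on chromosome 8 and Podxl on chromosome 6. The 41 domains on chromosome 6 had median CBX7 ratios of -1.54, -1.55 and -1.0 in experiments 1, 2 and 3, and the 35 on chromosome 8 had -1.53, -1.45 and -1.04. The other 648 had -1.29, -1.24 and -0.64. CBX7 fell at 39 of the 41, at 35 of the 35 and at 602 of the 648 (92.9%). The part of these chromosomes in the differences at single domains was not tested; with both chromosomes left out of the fit CBX7 fell at 599 of the 648 (92.4%).

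Lists were matched to the assigned gene, so the HOXC domain, assigned to Mir196a-2, is not among the Hox domains. By gene list, the counts of domains where CBX7 fell stand beside 676 of 724 (93.4%) over all domains and 44.3% of all intervals. It fell at 5 of 6 domains assigned to Hox genes, 8 of 8 of Pax, 12 of 12 of LIM homeobox, 39 of 41 of NK and related homeobox, 13 of 13 of the Irx, Eya, Meis and sine oculis list, 26 of 28 of paired-type and other brain homeobox and 4 of 5 of POU genes. It fell at 11 of 12 T-box, 6 of 8 Sox, 17 of 17 forkhead, 26 of 26 bHLH, 24 of 27 zinc finger and 11 of 12 Tfap2 and nuclear receptor domains. For the Wnt pathway it was 15 of 16 and for the BMP, TGF-beta, FGF and Hedgehog list 19 of 19. It fell at 3 of 3 domains of Polycomb genes, 2 of 2 of cyclin-dependent kinase inhibitors, 4 of 6 of pluripotency regulators and 3 of 3 of fibroblast markers. RING1B passed the test at 0 domains of any of these lists. List medians lay between -0.75 (2 domains of cyclin-dependent kinase inhibitors) and -1.23 (3 of fibroblast markers), beside -1.07 over all domains, and they all lay below 0 before rescaling. Pax6, which drives eye and forebrain development, went from 3486 ± 2303 tags per 10 M in WT to 1619 ± 923 in CaPS (SD, n = 3 each). Its log2 difference was -1.07 (SE 0.35, limma adjusted p 0.00643). Tbx5, a heart and forelimb regulator, had -1.41 (SE 0.29). Gdf7, a BMP-class ligand, had -1.70 (SE 0.27), and the Wnt ligand Wnt5a -1.32 (SE 0.32). Tbx5, Gdf7 and Wnt5a had the largest falls among the 5 widest domains of their lists. Ptch1 had -0.76 (SE 0.27). Tbx3 (-0.69, SE 0.32, limma adjusted p 0.0707) and Wnt10a (-0.63, SE 0.32, limma adjusted p 0.0946) did not pass. Cdkn2a, which encodes the cell cycle inhibitors p16 and p19, had CBX7 at 885, 2470.0 and 838 in WT and 438, 1150.0 and 706 in CaPS, a difference of -0.79 (SE 0.30, limma adjusted p 0.0247). CBX7 fell at Bmi1 (-0.94, SE 0.36) and Cbx8 (-1.12, SE 0.37), which encode PRC1 subunits.

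At 3 of the 10 widest domains the CBX7 difference did not pass the test. It was -0.97 (SE 0.48, adjusted p 0.0903, limma) over HOXC and -0.94 (SE 0.47, adjusted p 0.0877, limma) over HOXB and -0.57 (SE 0.36, adjusted p 0.203, limma) at Skida1. HOXD passed with -1.03 (SE 0.43, adjusted p 0.0417, limma) and HOXA with -1.35 (SE 0.49, adjusted p 0.0171, limma). With the same sum over the intervals the estimates at HOXC, HOXB, HOXD, Skida1 and Pax3 were above 0 (0.09, 0.11, 0.02, 0.48 and 0.05).

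RING1B also had lower values in CaPS at most domains, yet few passed the test. RING1B fell at 2 of 724 domains (0.276%, against 0.142% of all intervals), Comp and Cbln1, and rose at 0, where 0 had an unadjusted p under 0.05 for a rise. At Comp RING1B was 296, 1225 and 465 in WT, against 91.8, 292 and 216 in CaPS, a log2 difference of -1.61 (SE 0.38, adjusted p 0.0242, limma). At Cbln1 it was 854, 2639 and 1546 against 231, 658 and 794, with the same difference, SE and adjusted p. Both are on chromosome 8, and no domain passed when chromosomes 6 and 8 were left out. At an unadjusted p under 0.05, 398 domains had lower RING1B (1174 of all 6326 intervals). DESeq2 called 453 and edgeR 1. The median difference was -0.81 (narrower intervals -0.64), and by experiment it was -0.99, -1.18 and -0.25. RING1B was lower in all 3 experiments at 581 domains (80.2%, against 42.2% of all). At 75 domains (10.4%, against 8.19%) every CaPS library lay below every WT library. Without experiment 3, 648 domains were called, and without experiment 1 or 2, 0 were. With the same sum over the intervals, which moved the median of the whole table by 0.74, the median of the domains was -0.03, with 3 called lower and 3 higher.

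**Figure D3:**
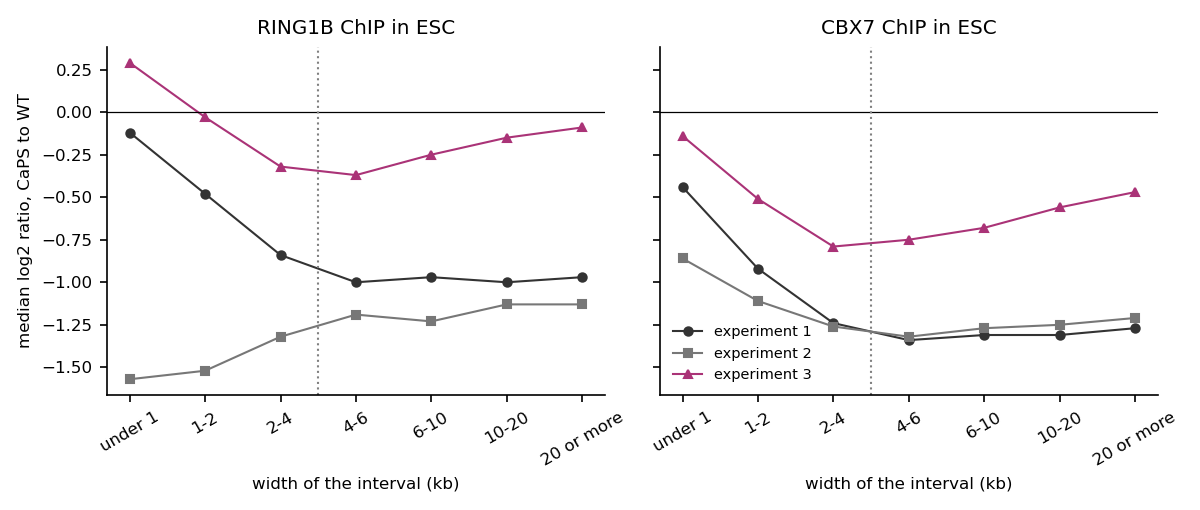
Median log2 ratio of CaPS to WT in each class of interval width (kb), for RING1B (left) and CBX7 (right). Each line is 1 experiment, the horizontal line marks equal values and the dotted line the 4 kb limit. In the domain classes all medians are below 0, and those of experiment 3 are nearest to 0 and move from -0.37 to -0.09 for RING1B and from -0.75 to -0.47 for CBX7 with width.

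The ratio of CBX7 to RING1B in WT, taken within an experiment, had a higher median at domains than at all narrower intervals, by little in experiment 3. The medians at domains were 0.995, 0.967 and 0.611 in experiments 1, 2 and 3, and those at narrower intervals were 0.814, 0.512 and 0.576. In experiment 3 the order by width was mixed, with 0.629 at 2 to 4 kb, 0.65 at 4 to 6 kb and 0.553 at 20 kb and over, whereas in experiments 1 and 2 the 2 to 4 kb class (0.935 and 0.808) lay below all domain classes. The 2 ChIPs use different antibodies, so the ratio ranks intervals and does not count molecules. The lowest ratios among the domains were at Sox2, which maintains pluripotent and neural progenitor cells, Ccnd1, which encodes cyclin D1, Adcyap1, Ptprs and Sall1. At Sox2 (chr3:34650654-34655585) CBX7 in WT was 32.7, 90.4 and 44.7 beside RING1B at 72.7, 384 and 111, with CBX7 below RING1B each time (ratios 0.458, 0.238 and 0.407). CBX7 in CaPS was 41.3, 83.7 and 57.6 there, and the difference did not pass (0.19, SE 0.29, adjusted p 0.636, limma). The highest ratios were at Sowaha, Egr4, Lonrf3, Grm4 and C1ql2, where they were 0.860 to 1.26 in all experiments.

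H3K27me3 peaks overlapped nearly all domains in ESC by at least 1 base. At 511 domains (70.6%) ChIP peaks covered at least 50% of the length. Wider intervals are also met by chance more often. An H3K27me3 ChIP peak overlapped 693 domains (95.7%, against 34.1% of narrower intervals) and a CUT&RUN peak overlapped the same number (against 49.4%). Over all 724 domains the median share of the domain covered was 73% by ChIP peaks and 100% by CUT&RUN peaks. Both assays had a peak at 673 domains. Of the 31 with no ChIP peak, 20 had a CUT&RUN peak, the widest at Nab2, a corepressor of Egr factors, at Zdbf2 (7056 bases) and at BB283400. A further 20 had only the ChIP peak. These were wide, with a median of 10432 bases, and included Zic4, Cbx8, Vax2os, Mir9-3, Nfix and Lmx1b. At the Zic4 domain ChIP peaks covered 92.2% of the domain and no CUT&RUN peak was called, so a missing CUT&RUN peak there does not show a missing mark.

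At 11 domains neither assay had an H3K27me3 peak. They lay at Igf2bp3, Otx2 (the 6110-base domain), Ccnd1, Cyr61, C430049B03Rik, Sox2, Tenm4, Sox4, Sall1, Mxi1 and L3mbtl3. Sox2 is known as an active gene of ESC. Median CBX7 density there was 30.8 tags per 10 M and kb in WT, against 80.5 over all domains, and median RING1B density 43.9 against 91.4. The median CBX7 to RING1B ratio was 0.896, 0.618 and 0.61 in experiments 1, 2 and 3, against 0.995, 0.967 and 0.611. CBX7 fell at 8 of the 11 (72.7%, beside 93.4% of all domains and 44.3% of all intervals) and was below WT in all 3 experiments at 10, against 695 of 724. RING1B was below WT in all 3 experiments at 2 of the 11, against 581 of 724.

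No difference in H3K27me3 between CaPS and WT ESC was detected at domains by ChIP. Of the 981 ChIP peaks on domains, limma called 0 in either direction, where 2 were lower and 2 higher at an unadjusted p under 0.05, and edgeR and DESeq2 also called 0. Over the whole table of 9195 peaks the share called was 0.0%. The median log2 difference was -0.07, and the experiments disagreed in sign, with 0.20 in experiment 1 and -0.36 in experiment 5. With 2 libraries per genotype the SE was large. It was 0.578 at a Zfhx3 peak (log2 difference -1.17) and 0.543 at the widest HOXA peak (-0.28), so a change of about 2-fold could be missed. At the HOXA domain the ChIP peaks together held 4017 and 8030 tags per 10 M in WT of experiments 1 and 5 and 3917 and 5479 in CaPS, from 3 peaks that cover 95% of the domain. Scaled to the same sum over the peaks, 21 were called lower and 3 higher (38 and 11 of all 9195).

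CUT&RUN gave 1 library per genotype, so its ratios have no replicate check and no test. Of the 717 H3K27me3 CUT&RUN peaks on domains, 19 (2.65%, against 4.2% of all peaks) were more than 2-fold higher in CaPS and 1 was more than 2-fold lower (0.873% of all), with a median log2 ratio of 0.33 (0.24 over all peaks). The peak over HOXA held 4869 tags per 10 M in WT and 8042 in CaPS, a ratio of 1.65 (95% exact binomial interval 1.60 to 1.70, counting error only). The HOXC peak had a ratio of 1.82 (1.77 to 1.88) and the Dlx6os2 peak 1.15 (1.10 to 1.21). All 9 of the 10 widest domains that had such a peak had a ratio above 1. The ChIP medians on domains were 0.20 in experiment 1, of the same sign, and -0.36 in experiment 5, of the opposite sign. The H3K27me3 CUT&RUN peaks held 5.83% of the tags in WT and 7.32% in CaPS. The part of that in the ratios was not tested.

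The RING1B CUT&RUN peaks of ESC overlapped 722 domains (99.7%, against 81.7% of narrower intervals) and give the only view of mCaPS. Over 750 peaks on domains the median log2 ratio of CaPS to WT was -0.70 (-0.62 over all peaks), with 122 peaks (16.3%, against 22.5% of all) more than 2-fold lower and 2 higher (0.455% of all). That of mCaPS to WT was -1.34 (-0.93 over all peaks), with 641 (85.5%, against 44.9%) more than 2-fold lower and 1 higher (0.356% of all). The median of mCaPS to CaPS was -0.66 (-0.33 over all peaks), with 65 peaks (8.67%, against 10.1%) more than 2-fold lower and 4 higher (3.0% of all). At HOXA the peak held 6373 tags per 10 M in WT, 4918 in CaPS and 2615 in mCaPS. The ratio to WT was 0.772 (0.747 to 0.797) for CaPS and 0.410 (0.394 to 0.427) for mCaPS. At the domain with the Hand2 start the values were 1585, 1100 and 564, with ratios of 0.694 (0.649 to 0.741) and 0.356 (0.326 to 0.388). Skida1 differed, where the main peak held 1186 in WT, 1264 in CaPS and 723 in mCaPS, with ratios to WT of 1.07 (an interval that includes 1) and 0.61 (0.562 to 0.661). A small second peak there had 2.33 (1.28 to 4.29) for CaPS, and 1 of 3 HOXC peaks had 1.11 (0.968 to 1.26). Peaks of the mCaPS library held 2.07% of its tags, against 3.01% for CaPS and 4.61% for WT, so its lower values go with a lower share of tags in peaks over the whole library. The part of that in the ratios was not tested.

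At day 8 of neural differentiation most domains still overlapped a RING1B peak. This held for 690 domains (95.3%, against 39.4% of narrower intervals), and 668 (92.3%, against 47.8%) overlapped an H3K27me3 peak. The RING1B peaks covered a median 67.7% of a domain. At day 10 of EB formation 689 domains (95.2%, against 49.5%) overlapped a RING1B CUT&RUN peak. A peak was present in all of the H3K27me3 ChIP and CUT&RUN sets of ESC and the RING1B and H3K27me3 sets of day 8 at 621 domains, and 600 of these also had the EB peak. RING1B peaks of day 8 met 98.1% of intervals of 10 to 20 kb, 98.8% at 6 to 10 kb, 91.2% at 4 to 6 kb, 76.6% at 2 to 4 kb and 20.8% under 1 kb.

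**Figure D4:**
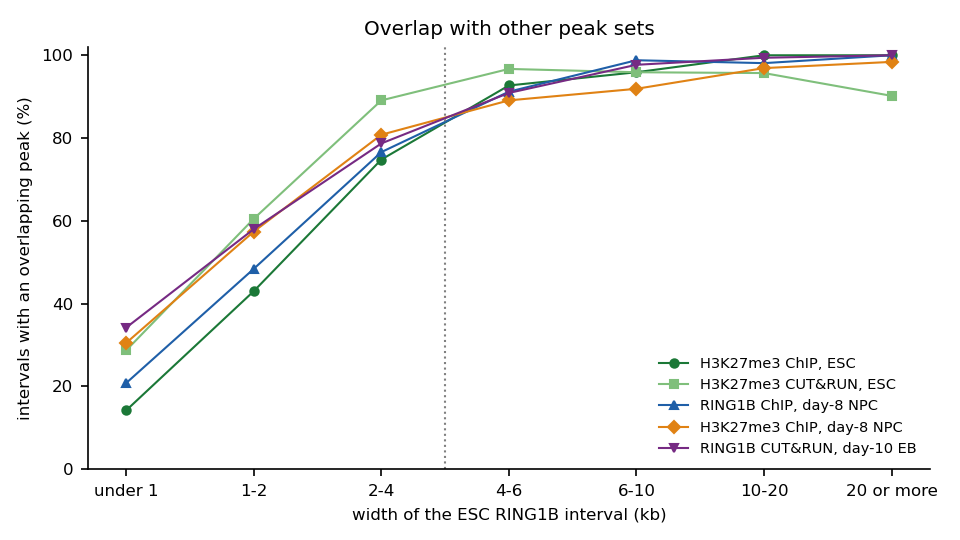
Share of ESC RING1B intervals (%) that overlap a peak of the 5 sets named in the key by at least 1 base, in classes of interval width (kb), with the dotted line at 4 kb. All 5 lines lie above 89% in the domain classes and fall below 35% for intervals under 1 kb. A wider interval is met by chance more often, which the plot does not correct for.

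The domains without a RING1B peak at day 8 were small and weak. There were 34, with a median width of 4564 bases and a median WT RING1B density in ESC of 49.3 tags per 10 M and kb, against 91.4 over all domains. The widest lay at Pcdhga9 (10444 bases) in the gamma protocadherin cluster, Zadh2 (10066), Zdbf2 (10019, a second domain upstream of the gene), Bcorl1 (8147), which encodes a corepressor related to a PRC1 subunit, and Zfhx3 (6399), a homeodomain zinc finger factor. The first of these still had an H3K27me3 peak and the other four had neither. At 36 domains the RING1B peak stood without H3K27me3. Meis1 and Meis2, whose products are cofactors of Hox proteins, were the widest of these, with RING1B peaks at day 8 over 17.9% and 11.3% of the domain. At Meis2 the day-8 RING1B peaks held 44 and 27.1 tags per 10 M in WT and 21 and 26.2 in CaPS (experiments 4 and 3), while in ESC the domain held 1746 to 4818 in WT and was covered by H3K27me3 ChIP peaks over 76.5%.

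No difference in RING1B at day 8 between the genotypes passed the test at domains. Of 1104 RING1B peaks of day 8 on domains, limma called 0 (0.0% of all 5393 peaks), edgeR and DESeq2 0 each, with 34 lower and 15 higher at an unadjusted p under 0.05 (403 and 129 of all). Scaled to equal sums over the peaks, 86 were called lower and 70 higher (243 and 192 of all), and without the block 2 and 1. The median log2 difference was -0.31, but it was -0.82 in experiment 4 and 0.25 in experiment 3. At the Sox2 domain the day-8 peak held 595 and 910.0 in WT and 1592 and 2475 in CaPS, higher in CaPS in both experiments, and at Sall1 258 and 421 against 735 and 1242. These 2 were picked after their values were seen, and neither passed the test. The authors' pooled H3K27me3 values of day 8 were more than 2-fold lower in CaPS at 422 of 920 peaks on domains (45.9%, against 53.1% of all) and more than 2-fold higher at 54 (5.87%, against 2.8%), with a median of -0.97 (-1.06 over all peaks). At the domain with the Hand2 start, the peaks held 6089 tags per 10 M in WT and 1168 in CaPS over 98.7% of the domain. The pooled WT column had 4.47 M tags, with 16.4% of them in the peaks, and the CaPS column had 32.88 M, with 8.2%. The part of that in these ratios was not tested. At day 10, where 860 EB peaks lay on domains, the median log2 ratio was -0.02 (0.15 over all peaks), with 15 peaks (1.74%, against 7.24%) more than 2-fold lower and 21 (2.44%, against 13.1%) higher.

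The time course shows how RING1B moved on the domains between ESC and day 8. All 724 domains met 717 peaks of its table. The median signal of these peaks in WT was 470.0 and 445 tags per 10 M in ESC (experiments 3 and 5), 168 and 199 at day 6 and 101 and 155 at day 8. In CaPS it was 388 and 432, then 165 and 334, then 120.0 and 196. The medians were lowest at day 8 in each series, and the drop by day 6 was smallest in CaPS of experiment 5. The values at day 8 were lower than in ESC at 704 and 647 of 717 peaks in WT and at 675 and 597 in CaPS. The WT series had median log2 changes of -2.14 and -1.39, and the CaPS series -1.61 and -1.14. Since the domains were defined from ESC signal, a lower level later is partly built in, and these figures describe the domains only. By the same fit 546 peaks were lower at day 8 in WT (20.9% of all 15091 peaks were) and 462 in CaPS (14.1%), and 5 and 8 were higher (1.73% and 1.63% of all).

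Counts over the course are given for some of the gene lists, with no test between lists. Over all 717 peaks on domains 76.2% were lower in WT and 64.4% in CaPS, beside 20.9% and 14.1% of all 15091 peaks. Lists were again matched by the assigned gene only. Of 16 peaks on domains of the Wnt pathway, 15 were lower at day 8 in WT, with a median of -2.42, and of 20 of the BMP, TGF-beta, FGF and Hedgehog list 19 were, with a median of -1.89. In CaPS these were 15 (median -1.79) and 16 (median -1.51). Of 11 T-box peaks 5 were lower in WT (median -0.86) and 7 in CaPS (median -1.55). Of 27 paired-type and other brain homeobox peaks it was 10 (median -0.92) and 7 (median -0.80), and of 11 LIM homeobox peaks 4 (median -1.17) and 4 (median -0.85). For Hox genes 3 of 6 peaks were lower in WT (median -1.67) and 3 in CaPS (median -1.30). For pluripotency regulators it was 1 of 5 in WT (median -0.09) and 1 in CaPS (median 0.39). The 1 peak of cyclin-dependent kinase inhibitors was called lower in neither genotype (0.64 in WT and 0.89 in CaPS). Of 466 peaks on domains of no list, 398 were lower in WT (median -1.93) and 337 in CaPS (median -1.50).

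The difference in this change between CaPS and WT was tested directly. Of the 717 peaks, limma called 1 with a stronger fall in CaPS (0.0729% of all peaks) and 5 with a weaker fall or a rise (0.199%). At an unadjusted p under 0.05 these were 15 and 77 (386 and 805 of all 15091 peaks). The median of the difference was 0.42 on the domains and 0.18 elsewhere. The estimate was above 0 at 22 of 27 paired-type and brain homeobox peaks and 12 of 13 peaks of the Irx, Eya, Meis and sine oculis list, and at 5 of 11 T-box peaks, beside 182 of 251 peaks of any list and 390 of 466 of none. The experiment 3 ESC and day-8 libraries are shared with the comparisons above. With the same sum over the peaks, which moved the median of all by -0.38, the median on the domains was -0.01 (elsewhere -0.20), and 39 were called lower and 28 higher (66 and 50 of all 15091). Without the block 0 were called.

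Among the 5, Eya4, a transcriptional coactivator needed in the inner ear, had RING1B at 528 and 425 tags per 10 M in WT ESC and at 326 and 171 at day 8. In CaPS it had 515 and 610.0 in ESC and 963 and 1794 at day 8. RING1B thus went down in both WT series and up in both CaPS series, with a difference of 2.23 (SE 0.55, limma adjusted p 0.0285). Foxp2, a forkhead regulator of the brain and lung, had 590.0 and 522 in WT ESC and 91.4 and 106 at day 8, and 292 and 281 in CaPS ESC and 160.0 and 325 at day 8, a difference of 2.16 (SE 0.50, limma adjusted p 0.0158). Its ESC level was already lower in CaPS, which enters the difference. Erbb4, a neuregulin receptor, went from 357 and 400.0 to 132 and 106 in WT and from 253 and 225 to 221 and 422 in CaPS. The non-coding genes Pantr2 and Gm38438 also had differences above 0, of 1.99 (SE 0.51) and 2.34 (SE 0.52). At Pantr2 the mean change was a fall in both genotypes, a smaller one in CaPS. The call in the other direction was 1010001N08Rik, a non-coding RNA gene, at 2208 and 1820 in WT ESC, 742 and 2826 in WT at day 8, 1985 and 2143 in CaPS ESC and 207 and 369 in CaPS at day 8. The WT libraries of day 8 disagreed there, while both CaPS series fell. Next to these, Pax6 had a difference of 1.75 (SE 0.74, adjusted p 0.509, limma) that did not pass, with 4016 and 5116 in WT ESC, 846 and 859 at day 8, 3474 and 3197 in CaPS ESC and 1562 and 2866 at day 8. Tbx3 (-1.89, SE 0.70, limma adjusted p 0.398) and Gata4 (-1.73, SE 0.64, limma adjusted p 0.397), both regulators of heart development, had estimates below 0 that did not pass. Their WT libraries of day 8 disagreed as well, with 1149 and 4008 at Tbx3 and 747 and 2564 at Gata4. Pax6, Tbx3 and Gata4 were chosen for this comparison after their values were seen.

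**Figure D5:**
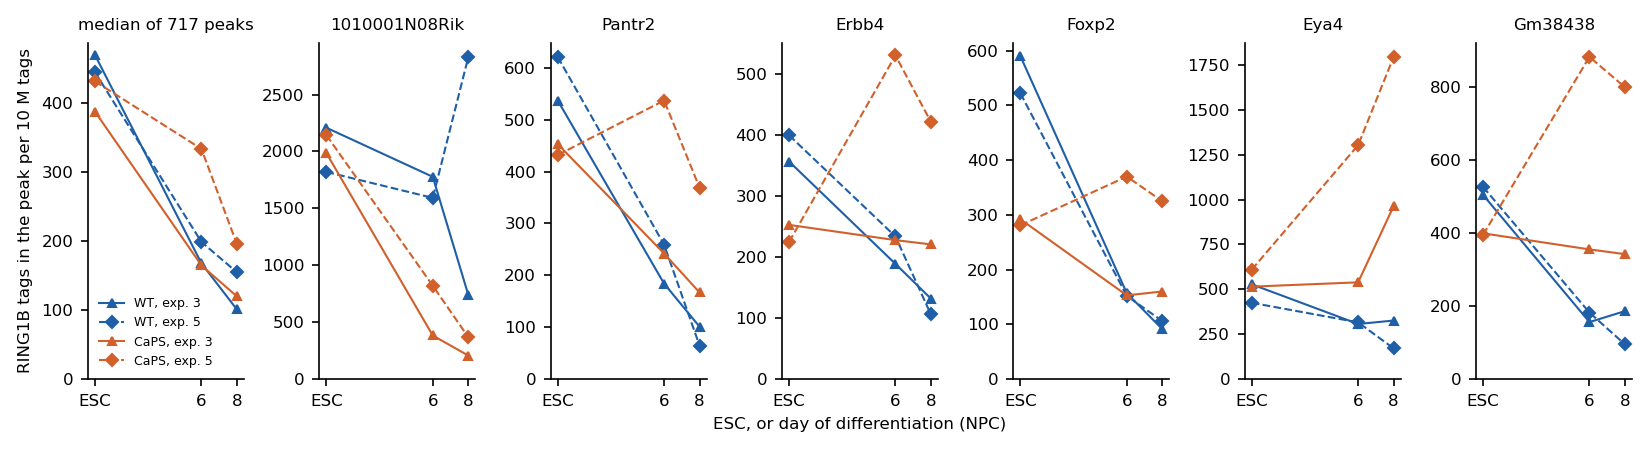
RING1B tags per 10 M tags in ESC and at days 6 and 8 of neural differentiation. The left panel gives the median of the 717 peaks on domains and the others the 6 peaks with a called difference in change. Each line is 1 genotype in 1 experiment (WT blue, CaPS orange). Apart from 1010001N08Rik, the WT lines of single peaks end between 64.5 and 326 at day 8, and CaPS at day 8 lies above WT of the same experiment.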

How the data were processed

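The authors deposited peak tables from ChIP and CUT&RUN with a signal per library, the tags in a peak scaled to 10 M tags, per the file headers. Tools listed in the submitters' processing notes are HOMER 4.10.4, SAMtools 1.9, Bowtie2 2.3.4.3 and cutadapt 1.14, with the builds mm10 and dm6. Drosophila chromatin was spiked into ChIP samples, per the labels' protocols; no label or header says whether the totals were corrected for it. Peaks were called over input or IgG, per the series design text. The ESC CBX7 table lists the same 6326 intervals as that of RING1B. Value times header total gave whole read ends (0.5 tag) for 100% of values. From the values, 2 columns of samples that the labels do not list and 6 pooled columns were not used (the day-8 H3K27me3 values are the authors' pooled ones), and knockout libraries were not analysed here.

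Differences were tested on log2(value + 1) with limma 3.58.1 (R 4.3.3; empirical Bayes with trend) over each whole table, with Benjamini-Hochberg adjustment and a threshold of 0.05. This scale understates the fold change of weak peaks. The fitted prior degrees of freedom were infinite, which sets each peak's variance from the trend alone and lets p be small where its own libraries disagree. The experiment number in the title was the block, since the design text says that comparisons were made within experiments. The mean of each group was also subtracted from the log2 values at each peak. These residuals of same-numbered libraries correlated across peaks at 0.043 to 0.3 for CBX7, -0.02 to 0.23 for RING1B and 0.094 for H3K27me3. The correlations were 0.065 to 0.22 in the time course and 0.25 at day 8. Such a correlation leaves out a shift shared by all peaks of a library, so it does not measure the scale of an experiment. The pairing is taken from the design text. Peaks counted as overlapping from 1 shared base. Alternatives were edgeR 4.0.16 and DESeq2 1.42.0 on the recovered read ends, other scaling, pseudocount, filter, width limit and overlap, and omitted experiments or chromosomes. Scripts were tested on simulated data. Promoter sequences are from RefSeq (GRCm38.p6). Named domains were the 10 widest, the widest 5 of each gene list, the 5 largest called changes, the extremes of the CBX7 to RING1B ratio, the widest domains without a peak in another set and those beside the 4 kb limit. Some of these are not reported here. The members and lists were chosen with earlier results of these data known. Single libraries were called past 2-fold, with no test.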

Additional observations from a re-analysis of the deposited data

Results flagged for a closer look

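At 6 peaks on domains the change of RING1B from ESC to day 8 differed between CaPS and WT by the interaction test (limma, adjusted p under 0.05). The difference, CaPS minus WT on the log2 scale, was -2.43 at 1010001N08Rik, 1.99 at Pantr2, 2.02 at Erbb4, 2.16 at Foxp2, 2.23 at Eya4 and 2.34 at Gm38438. Each genotype had 2 series. The changes within the genotypes were -0.47 (WT) and -2.89 (CaPS) at 1010001N08Rik, -2.82 and -0.83 at Pantr2, -1.67 and 0.35 at Erbb4, -2.49 and -0.33 at Foxp2, -1.0 and 1.23 at Eya4 and -1.94 and 0.4 at Gm38438. All 6 kept their sign with the same sum over the peaks, where the differences were -2.87, 1.56, 1.59, 1.72, 1.79 and 1.9. With edgeR the adjusted p was 0.0375 at 1010001N08Rik, 0.0369 at Foxp2 and Gm38438, 0.0824 at Eya4, 0.0973 at Erbb4 and 0.151 at Pantr2. Without the block the adjusted p of the 6 lay between 0.623 and 0.749. None of the tables compared here holds 4 libraries of a group, so no library was checked as an outlier within its group.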

How the results depend on the processing

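Shares are of domains, or of peaks on domains, called in either direction. Without the replicate block the share was 0.0% for CBX7 (93.4% with it), 0.0% for RING1B, 0.272% for RING1B at day 8 and 0.0% for the time course interaction (0.837% with it). Without the trend these were 0.0%, 0.0%, 0.453% and 0.0%. With the same sum over the intervals they were 13.8% (61 lower, 39 higher), 0.829%, 14.1% (86 and 70) and 9.34% (39 and 28), and 2.45% for H3K27me3, with medians of -0.02 for CBX7 and -0.03 for RING1B. RING1B in ESC, 0.276% by the reported fit, was 1.66% with a pseudocount of 10, 1.8% with a minimum mean of 10, 0.138% with edgeR, 62.6% with DESeq2 and 0.0% without chromosomes 6 and 8. The interaction was 0.418% with edgeR and 3.07% with DESeq2 (5 lower, 17 higher). Leaving out 1 experiment gave 24.3% to 99.4% for CBX7 and 0.0% to 89.5% for RING1B; CBX7 was 28.5% without experiment 1. The medians then ran from -0.96 to -1.28 and from -0.62 to -1.08. No such fit was made for H3K27me3, day-8 RING1B or the time course, where it leaves no residual degrees of freedom. The estimates that changed sign did so with the same sum: CBX7 at Mir196a-2 (0.09), Hoxb5os (0.11), Hoxd11 (0.02), Skida1 (0.48) and Pax3 (0.05), and RING1B at the same domains (0.08, 0.03, 0.03, 0.55 and 0.09). RING1B at Skida1 ran from -0.61 to 0.01 when 1 experiment was left out, and was 0.01 without experiment 1. Of the other values of named domains, 197 kept their side of the threshold, 52 lost it and 26 gained it. Among the shares and medians, 61 were counted as unchanged and 27 as moved. The overlap of domains stayed within 1.5 times the reported share in each alternative, 65.7% at the lowest when a peak had to cover 50% of the domain. Why the other alternatives moved these values was not tested, except that leaving out libraries or genes leaves fewer. The shallowest ESC library of RING1B and CBX7, CaPS RING1B of experiment 2, held 2.23 M tags, where a count of 3 tags equals 13.5 tags per 10 M.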
